A study of Mus musculus with 16 samples.

Results

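The genes described here encode enzymes and regulators that make cholesterol and fatty acids. They were taken from a list of 34 genes, and each was read from its brightest probe set (by the mean of 16 arrays) among those annotated to that gene alone. Of the 34 genes, 33 were measured among the 12393 genes on the arrays. Insig1, which encodes an endoplasmic reticulum protein that retains sterol sensors, was not analysed here because no probe set was annotated to it alone. No threshold on measured values enters the rule for the list.

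Each array held RNA from the whole left lung of 1 mouse with a mean age of 14 weeks. The groups were adiponectin-deficient mice in ozone, adiponectin-deficient mice in room air, wildtype mice in ozone and wildtype mice in room air. Ozone, an oxidant air pollutant, was given at 0.3 ppm for 72 h, and the labels give C57BL/6 as the background strain of all mice. Every group had 4 mice, 2 males (M1, M2) and 2 females (F1, F2), and values are listed in the order M1, M2, F1, F2. Adiponectin is a hormone secreted by fat cells.

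Cholesterol is built from acetyl-CoA. Mevalonate is formed first, isoprenoid units are joined into squalene, squalene is closed into lanosterol, and a chain of further enzymes turns lanosterol into cholesterol. The transcription factor encoded by Srebf2 is released from membranes when sterols are scarce and activates most of these genes, while that encoded by Srebf1 acts mainly on fatty acid genes. Fatty acid synthase extends acetyl and malonyl units into saturated chains, which elongases lengthen and desaturases give double bonds. In the lung, alveolar type 2 cells use both pathways for surfactant, the lipid film that lines the air spaces.

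Differences are log2 fold changes, ozone minus air unless stated, ± SE of a linear model with group and sex as terms. Adjusted p-values are limma's, with Benjamini-Hochberg adjustment over all 12393 genes, and a gene was called at an adjusted p under 0.05. Levels are log2 intensities. The medians of the arrays lay between 145.9 and 153.7 on the linear scale, and precision is limited by how many arrays there are. Adipoq, which encodes adiponectin, differed by -1.80 between the genotypes (deficient minus wildtype, two-sided exact permutation p = 0.0042). On 7 deficient arrays it lay between 6.07 and 6.97, below all 8 wildtype arrays (7.19 to 11.52). On the array labelled deficient air F2 it was at 8.82, above 6 of the 8 wildtype arrays. Taken alone, this goes against the label of the array. Adipoq is also a fat cell marker, and the 7 fat cell markers measured, Adipoq among them, summed to 8240 on this array. They summed to 9093 on wildtype air F1, where Adipoq was higher, at 11.52, and to 957 to 2037 on the other 14 arrays. Whether fat in the sample or the label accounts for the 8.82 was not tested. The array is kept as labelled below, and every result for deficient mice in air rests on that label. The labels do not say which part of the gene was deleted. Without that array and wildtype air F1 the Adipoq difference was -1.67 (exact permutation p = 0.000583). For wildtype ozone F1, 1 label field gave room air and the others gave ozone, and the array was kept in the ozone group. In air, 2 arrays stood apart by Ucp1, the uncoupling protein of brown fat, which was at 7.27 in the mouse labelled deficient F2 and 7.25 in wildtype F1, against 4.62 to 5.18 on the other 14 arrays. Deficient air M2 carried skeletal muscle markers, with a summed intensity of 21321 for 5 genes, against 436 to 576 on the deficient ozone arrays and all wildtype arrays. The results are therefore also given without these arrays. In whole lung, fewer cells of a type and less RNA per cell cannot be told apart.

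Many genes of the sterol pathway rose in ozone in both genotypes. With all arrays, the fatty acid enzymes that were called moved in both directions in deficient mice and only upward in wildtype mice. In deficient mice 10 of the 33 genes were called higher and 5 lower. The share of all genes called was 15.8% higher and 14.6% lower. In wildtype mice 12 were called higher and 1 lower, against 19.6% and 17.1% of all genes. Called higher in both were 8 genes, Mvk, Mvd, Idi1, Fdps, Cyp51, Ebp, Scd1 and Fads2, and Srebf1 was called lower in both. The calls of Mvk, Mvd, Fdps, Cyp51, Ebp and Scd1 held in both genotypes whichever 1 of the 16 arrays was left out. Mvd, Idi1, Fdps, Cyp51, Scd1 and Fads2 also had dimmer probe sets, which are not described here. Among the 17 enzymes of the sterol pathway 7 rose in deficient mice and 10 in wildtype mice, and 0 fell in either. The median difference of these 17 was 0.25 in deficient mice, against 0.01 over all genes, and 0.27 in wildtype mice, against 0.03 over all genes. Without the 2 air arrays of high Ucp1, 7 of the 17 rose in deficient mice and 9 in wildtype mice. In that setting 13.9% of all genes were called higher and 13.6% lower in deficient mice, and 18.5% and 16.1% in wildtype mice. Without deficient air M2 as well, 5 rose in deficient mice and 8 in wildtype mice, and 0 fell in either setting. The shares of all genes were then 12.1% higher and 12.9% lower in deficient mice, and 18.7% and 16.2% in wildtype mice. The 13 enzymes of fatty acid synthesis, desaturation and elongation had 2 rises and 4 falls in deficient mice and 2 rises and 0 falls in wildtype mice, with median differences of 0.03 and 0.05. Without the 2 air arrays of high Ucp1 there were 3 rises and 2 falls in deficient mice and 4 rises and 1 fall in wildtype mice, with medians of 0.01 and 0.15. Without deficient air M2 as well there were 3 rises and 2 falls in deficient mice and 4 rises and 0 falls in wildtype mice, with medians of 0.19 and 0.13.

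**Figure D1:**
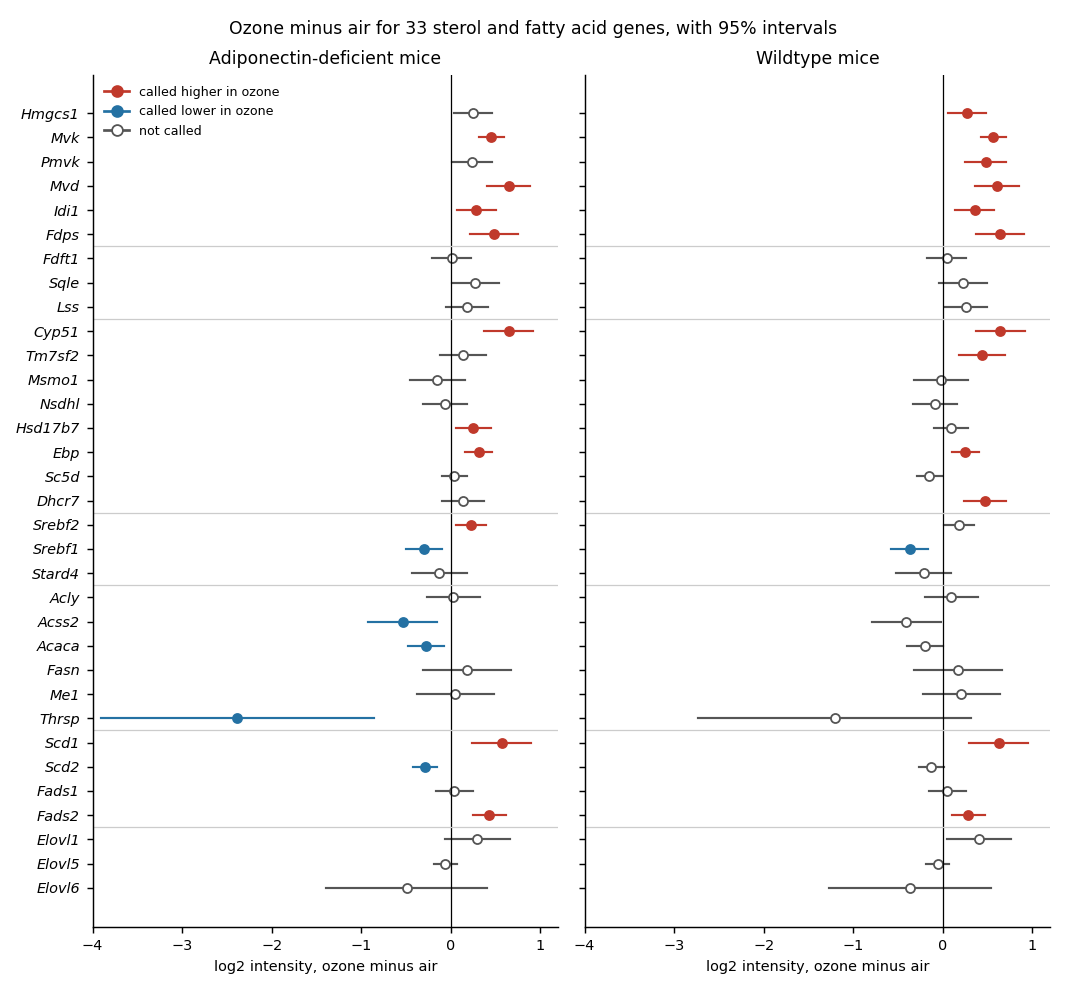
Differences in log2 intensity, ozone minus air, for the 33 measured genes in adiponectin-deficient mice (left) and wildtype mice (right), ordered by role from mevalonate synthesis at the top to elongation at the bottom. Points are model estimates with 95% intervals from 4 arrays a group, filled where called, and the grey lines separate the roles. Red points fill the upper block of mevalonate genes, 4 of 6 in deficient mice and 6 of 6 in wildtype mice, and Thrsp has the widest interval.

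The early mevalonate genes were the block with the most rises. Mvk, mevalonate kinase, measured 7.68, 7.84, 7.62 and 7.83 in deficient ozone lungs, against 7.29, 7.25, 7.30 and 7.34 in deficient air lungs. In wildtype mice it measured 7.78, 7.84, 7.83 and 7.84 in ozone, against 7.20, 7.12, 7.33 and 7.40 in air. All 8 ozone values lay above all 8 air values. The difference was 0.45 ± 0.06 in deficient mice (adjusted p = 0.000126) and 0.56 ± 0.06 in wildtype mice (adjusted p = 2.23e-05), and a second probe set also rose, by 0.31 and 0.47. Mvd, the decarboxylase that makes isopentenyl diphosphate, measured 7.23, 7.67, 7.49 and 7.68 in deficient ozone lungs, against 6.63, 7.03, 7.03 and 6.79 in deficient air lungs. It measured 7.63, 7.56, 7.63 and 7.52 in wildtype ozone lungs, against 7.10, 6.73, 6.95 and 7.13 in wildtype air lungs. Groups did not overlap in either genotype. The rise was 0.65 ± 0.11 (adjusted p = 0.000586) in deficient mice and 0.61 ± 0.11 (adjusted p = 0.000861) in wildtype mice. Fdps, which joins isoprenoid units to farnesyl diphosphate, was at 9.98, 10.01, 9.58 and 9.66 in deficient ozone lungs, against 9.04, 9.44, 9.27 and 9.54 in deficient air lungs. Its wildtype values were 9.82, 9.75, 10.03 and 9.66 in ozone, against 9.39, 9.15, 8.98 and 9.18 in air. Again no ozone value fell below an air value of the same genotype, and the rise was 0.48 ± 0.13 (adjusted p = 0.00859) in deficient mice and 0.64 ± 0.13 (adjusted p = 0.0012) in wildtype mice.

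Idi1, the isomerase of isopentenyl diphosphate, had 9.47, 9.95, 9.66 and 9.81 in deficient ozone lungs, against 9.18, 9.23, 9.62 and 9.72 in deficient air lungs. The wildtype lungs had 9.54, 9.58, 9.82 and 9.93 in ozone, against 9.28, 9.29, 9.35 and 9.52 in air. The deficient groups overlapped and the wildtype groups did not. The rise was 0.28 ± 0.10 (adjusted p = 0.0482) in deficient mice and 0.36 ± 0.10 (adjusted p = 0.0134) in wildtype mice. The deficient call was lost when any 1 of 12 arrays was left out, with adjusted p up to 0.153. These were deficient ozone M2 and F2, deficient air M1, M2 and F1, all 4 wildtype ozone arrays, and wildtype air M1, M2 and F2, and without deficient ozone M2 the difference was 0.16. It was also lost without the 2 arrays of high Ucp1 and deficient air M2 (0.32, adjusted p = 0.0781). Pmvk, phosphomevalonate kinase, was at 8.16, 8.60, 7.96 and 8.14 in deficient ozone lungs, against 7.99, 8.06, 7.80 and 8.06 in deficient air lungs. Wildtype values were 8.53, 8.56, 8.38 and 8.29 in ozone, against 8.29, 8.15, 7.61 and 7.81 in air. The difference was 0.24 ± 0.11 (adjusted p = 0.104) in deficient mice and 0.48 ± 0.11 (adjusted p = 0.00285) in wildtype mice, where the lowest ozone array lay just above the highest air array. Without the 2 arrays of high Ucp1 it was called in both genotypes, at 0.31 (adjusted p = 0.0273) in deficient mice and 0.41 (adjusted p = 0.00625) in wildtype mice, and without deficient air M2 as well the deficient difference was 0.32 (adjusted p = 0.051). Hmgcs1, the synthase that makes the substrate of HMG-CoA reductase, had 10.70, 11.17, 11.09 and 11.30 in deficient ozone lungs, against 10.49, 10.59, 11.18 and 10.99 in deficient air lungs. Its wildtype values were 10.55, 10.71, 11.02 and 11.24 in ozone, against 10.42, 10.43, 10.73 and 10.86 in air. Ozone and air overlapped in both genotypes, and the males of each air group lay below its females. The difference was 0.25 ± 0.10 (adjusted p = 0.073) in deficient mice and 0.27 ± 0.10 (adjusted p = 0.0459) in wildtype mice. The wildtype call was lost when any 1 of 10 arrays was left out, with adjusted p up to 0.132. These were deficient ozone F2, deficient air M2 and F2, wildtype ozone M2, F1 and F2, and all 4 wildtype air arrays. It was also lost without the 2 arrays of high Ucp1 (0.24, adjusted p = 0.123). Of the other 3 probe sets of Hmgcs1, the fourth brightest rose in both genotypes, by 0.54 in deficient mice and 0.45 in wildtype mice, and the other two were not called in either.

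Promoters are shown for Hmgcs1, the one gene in which a sterol regulatory element was found by sequence, and for Mvk, Mvd and Cyp51, the sterol genes called in both genotypes with the largest differences among those with a promoter entry. Each spans 250 bases before and 50 bases after the transcription start in RefSeq, build GRCm38.p6, and is printed along the strand of the gene. Capitals mark the letters TCACNCCAC, a form of the sterol regulatory element bound by the Srebf factors, and CCAAT, the box bound by NF-Y, on either strand (CCAAT reads ATTGG on the opposite strand). No 2 of the marked stretches overlap.
Hmgcs1, chr13:119690101-119690400, plus strand: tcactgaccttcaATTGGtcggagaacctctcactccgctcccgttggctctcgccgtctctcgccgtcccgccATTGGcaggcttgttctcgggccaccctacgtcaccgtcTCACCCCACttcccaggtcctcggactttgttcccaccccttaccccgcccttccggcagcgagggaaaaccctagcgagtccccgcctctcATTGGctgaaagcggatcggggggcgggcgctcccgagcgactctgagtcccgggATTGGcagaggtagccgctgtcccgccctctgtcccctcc
Mvk, chr5:114444019-114444318, plus strand: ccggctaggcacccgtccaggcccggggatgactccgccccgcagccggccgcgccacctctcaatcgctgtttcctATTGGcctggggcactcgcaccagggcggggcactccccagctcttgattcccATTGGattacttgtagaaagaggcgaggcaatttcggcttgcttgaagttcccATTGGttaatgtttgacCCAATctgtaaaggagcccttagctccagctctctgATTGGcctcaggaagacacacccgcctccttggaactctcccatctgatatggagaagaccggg
Mvd, chr8:122443373-122443672, minus strand: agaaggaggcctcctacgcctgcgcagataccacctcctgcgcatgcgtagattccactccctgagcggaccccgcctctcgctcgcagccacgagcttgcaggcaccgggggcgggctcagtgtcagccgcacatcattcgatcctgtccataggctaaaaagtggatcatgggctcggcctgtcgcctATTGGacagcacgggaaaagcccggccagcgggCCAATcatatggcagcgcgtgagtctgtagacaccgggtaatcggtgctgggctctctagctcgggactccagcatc
Cyp51, chr5:4104648-4104947, minus strand: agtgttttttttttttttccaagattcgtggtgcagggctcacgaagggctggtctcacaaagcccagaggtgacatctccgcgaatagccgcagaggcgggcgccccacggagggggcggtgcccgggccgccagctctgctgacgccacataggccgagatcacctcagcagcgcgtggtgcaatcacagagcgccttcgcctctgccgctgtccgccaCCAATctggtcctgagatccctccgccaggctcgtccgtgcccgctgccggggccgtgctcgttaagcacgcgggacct
The sterol element of Hmgcs1 began 137 bases before the start, with 4 CCAAT boxes in the window. Mvk had 5 CCAAT boxes, Mvd had 2 and Cyp51 had 1, which began 29 bases before its start. Other forms of the sterol regulatory element were not searched. Promoter entries were found for 26 of the 33 genes, and Fdps, Fdft1, Sqle, Stard4, Scd1, Scd2 and Fads1 had none. CCAAT was present in 23 of these 26 (88.5%), against 41.1% of all 27025 genes with an entry. GGGCGG, the Sp1 box, searched on both strands, was present in 20 of 26 (76.9%), against 38.2% of all genes, and TCACNCCAC in 1 of 26 (3.85%), against 1.44%. A gene with several starts counted as holding a motif if any window did, and base composition was not matched.

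Between farnesyl diphosphate and lanosterol, 0 of 3 genes were called in either genotype by limma. At an unadjusted p under 0.05, Sqle alone would pass in deficient mice and Lss alone in wildtype mice. Fdft1, squalene synthase, ranged from 8.85 to 9.18 in deficient ozone lungs, against 8.65 to 9.42 in deficient air lungs, and from 8.78 to 9.07 in wildtype ozone lungs, against 8.63 to 9.05 in wildtype air lungs. Its differences were 0.01 ± 0.10 in deficient mice and 0.04 ± 0.10 in wildtype mice. The probe sets of Fdft1 disagreed. Tested on their own over all probe sets, 1 of the other 3, the second brightest, was called higher in deficient mice, by 0.35 (adjusted p = 0.0314), and all 3 in wildtype mice, by 0.47, 0.66 and 0.38. Sqle, squalene epoxidase, differed by 0.27 ± 0.12 (adjusted p = 0.108) in deficient mice and by 0.22 ± 0.12 (adjusted p = 0.171) in wildtype mice. Lss, lanosterol synthase, differed by 0.18 ± 0.11 (adjusted p = 0.249) in deficient mice and by 0.26 ± 0.11 (adjusted p = 0.0847) in wildtype mice. A second probe set of Lss, less bright, was called lower in both, at -0.74 in deficient mice and -0.76 in wildtype mice.

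Of the 8 genes that carry lanosterol to cholesterol, 3 rose in deficient mice and 4 in wildtype mice. Cyp51, lanosterol demethylase, measured 8.09, 8.66, 8.20 and 8.48 in deficient ozone lungs, against 7.31, 7.85, 7.87 and 7.82 in deficient air lungs. It measured 8.16, 8.05, 8.27 and 8.21 in wildtype ozone lungs, against 7.50, 7.42, 7.47 and 7.73 in wildtype air lungs. All ozone values lay above all air values. The rise was 0.65 ± 0.13 (adjusted p = 0.00139) in deficient mice and 0.64 ± 0.13 (adjusted p = 0.00133) in wildtype mice. Ebp, the sterol isomerase, was at 9.95, 9.75, 9.80 and 9.64 in deficient ozone lungs, against 9.60, 9.62, 9.27 and 9.39 in deficient air lungs. Wildtype values were 9.84, 9.74, 9.65 and 9.60 in ozone, against 9.54, 9.49, 9.28 and 9.53 in air. Its groups did not overlap, and it rose by 0.31 ± 0.07 (adjusted p = 0.0036) in deficient mice and by 0.25 ± 0.07 (adjusted p = 0.0123) in wildtype mice. The wildtype call was lost without the 2 arrays of high Ucp1 and deficient air M2 (0.21, adjusted p = 0.0511). Dhcr7, the last reductase of the pathway, had 7.69, 7.81, 7.94 and 7.92 in deficient ozone lungs, against 7.34, 7.73, 7.94 and 7.82 in deficient air lungs. In wildtype lungs it had 7.89, 7.57, 7.96 and 8.24 in ozone, against 7.30, 7.02, 7.80 and 7.68 in air. Within each sex of the wildtype mice the ozone arrays lay above the air arrays. The difference was 0.13 ± 0.11 (adjusted p = 0.404) in deficient mice and 0.47 ± 0.11 (adjusted p = 0.00419) in wildtype mice, and the difference between genotypes was itself not called (-0.34, adjusted p = 0.983).

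Tm7sf2, a sterol reductase of the same chain, had 7.93, 8.04, 7.56 and 7.68 in deficient ozone lungs, against 7.62, 7.67, 7.56 and 7.81 in deficient air lungs. The wildtype lungs had 8.09, 8.03, 7.80 and 7.54 in ozone, against 7.56, 7.25, 7.25 and 7.65 in air. Wildtype ozone F2 lay below wildtype air F2, while the other three wildtype ozone arrays lay above all air arrays of their genotype. The difference was 0.14 ± 0.12 (adjusted p = 0.437) in deficient mice and 0.44 ± 0.12 (adjusted p = 0.0108) in wildtype mice. Hsd17b7, which reduces a keto group on the sterol ring, had 6.68, 6.77, 6.89 and 7.04 in deficient ozone lungs, against 6.42, 6.66, 6.63 and 6.67 in deficient air lungs. Its wildtype values were 6.88, 6.75, 6.74 and 6.62 in ozone, against 6.77, 6.43, 6.73 and 6.71 in air. The deficient groups were separate by a narrow gap. The difference was 0.25 ± 0.09 (adjusted p = 0.0473) in deficient mice and 0.09 ± 0.09 (adjusted p = 0.462) in wildtype mice. The deficient call was lost when any 1 of 10 arrays was left out, with adjusted p up to 0.159. These were deficient ozone M2, F1 and F2, deficient air M1, F1 and F2, wildtype ozone M2 and F1, and wildtype air F1 and F2. It was also lost without the 2 arrays of high Ucp1 (0.26, adjusted p = 0.0794). Msmo1, Nsdhl and Sc5d, which oxidise and desaturate the ring, were not called, with differences from -0.15 to 0.04 in deficient mice and from -0.15 to -0.02 in wildtype mice.

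**Figure D2:**
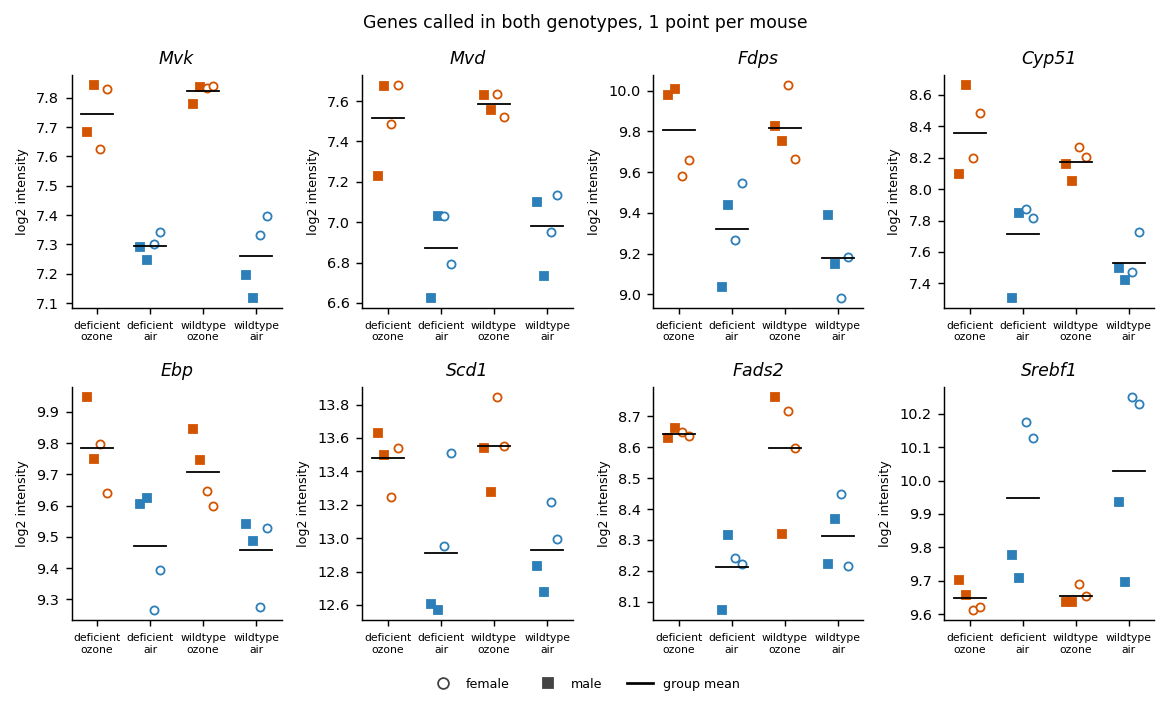
Log2 intensity of 8 genes called in both genotypes, with 1 point per mouse (circles female, squares male, orange ozone, blue air) and the group mean as a line. Within each genotype, ozone arrays lie above air arrays for Mvk, Mvd, Fdps, Cyp51 and Ebp. For Srebf1 they lie below, and Idi1, also called in both, is not drawn.

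Of the 3 genes of regulation and transport, Srebf1 fell in both genotypes, Srebf2 rose in deficient mice and Stard4 was called in neither. Srebf1 measured 9.70, 9.66, 9.61 and 9.62 in deficient ozone lungs, against 9.78, 9.71, 10.18 and 10.13 in deficient air lungs. It measured 9.64, 9.64, 9.69 and 9.65 in wildtype ozone lungs, against 9.94, 9.70, 10.25 and 10.23 in wildtype air lungs. The 8 ozone values spanned 9.61 to 9.70, while the air values were high in the 4 females. Srebf1 fell, at -0.30 ± 0.10 (adjusted p = 0.0276) in deficient mice and -0.37 ± 0.10 (adjusted p = 0.00719) in wildtype mice. The deficient call was lost without deficient ozone F1 or F2 or deficient air F1 or F2, with differences from -0.27 to -0.25 and adjusted p up to 0.0947. It was lost also without the 2 arrays of high Ucp1 (-0.27, adjusted p = 0.0781). Srebf2 was at 9.02, 9.17, 9.21 and 9.16 in deficient ozone lungs, against 8.70, 8.92, 9.06 and 8.98 in deficient air lungs. Its wildtype levels were 9.30, 9.14, 9.23 and 9.27 in ozone, against 9.0, 8.97, 9.30 and 8.96 in air. Wildtype air F1, 1 of the 2 arrays of high Ucp1, reached the level of the ozone arrays. Srebf2 rose by 0.23 ± 0.08 (adjusted p = 0.0367) in deficient mice and differed by 0.18 ± 0.08 (adjusted p = 0.0837) in wildtype mice, where it was called without those 2 arrays (0.25, adjusted p = 0.0248). The deficient call was lost without deficient ozone M2, F1 or F2 or deficient air M1 or F2, with adjusted p up to 0.128. A second probe set of Srebf2 was called in both, by 0.56 in deficient mice and 0.28 in wildtype mice. Stard4, a carrier of cholesterol between membranes, differed by -0.13 ± 0.14 (adjusted p = 0.549) in deficient mice and -0.22 ± 0.14 (adjusted p = 0.258) in wildtype mice.

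With all arrays, the fatty acid genes called higher were 2 of the 4 desaturase genes, Scd1 and Fads2. Scd1, the stearoyl-CoA desaturase that makes monounsaturated fatty acids, measured 13.63, 13.50, 13.25 and 13.54 in deficient ozone lungs, against 12.60, 12.57, 12.96 and 13.51 in deficient air lungs. It measured 13.54, 13.28, 13.84 and 13.55 in wildtype ozone lungs, against 12.83, 12.68, 13.22 and 12.99 in wildtype air lungs. Both arrays of high Ucp1 were the highest air arrays of their genotype. The rise was 0.57 ± 0.15 (adjusted p = 0.0117) in deficient mice and 0.62 ± 0.15 (adjusted p = 0.00587) in wildtype mice, and 0.74 and 0.69 without those 2 arrays. Fads2, the desaturase that starts the making of long polyunsaturated fatty acids, was at 8.63, 8.66, 8.65 and 8.64 in deficient ozone lungs, against 8.07, 8.32, 8.24 and 8.22 in deficient air lungs. In wildtype lungs it was at 8.76, 8.32, 8.72 and 8.60 in ozone, against 8.22, 8.37, 8.45 and 8.22 in air. Only the deficient groups were separate. The rise was 0.43 ± 0.09 (adjusted p = 0.0018) in deficient mice and 0.29 ± 0.09 (adjusted p = 0.0201) in wildtype mice, and the wildtype call was lost without wildtype ozone M1 or F1 or wildtype air M1 or F2 (differences from 0.22 to 0.26, adjusted p up to 0.0752). Fads1, the next desaturase on that route, differed by 0.04 ± 0.10 in deficient mice and by 0.05 ± 0.10 in wildtype mice. Scd2, a second stearoyl-CoA desaturase, had 12.25, 12.34, 12.18 and 12.37 in deficient ozone lungs, against 12.67, 12.56, 12.49 and 12.58 in deficient air lungs. Its wildtype values were 12.55, 12.50, 12.53 and 12.51 in ozone, against 12.75, 12.71, 12.48 and 12.66 in air. The deficient ozone arrays lay below all the others. Scd2 fell, at -0.29 ± 0.06 (adjusted p = 0.00293) in deficient mice and differed by -0.13 ± 0.06 (adjusted p = 0.126) in wildtype mice. Without the 2 arrays of high Ucp1 it was called lower in both genotypes, at -0.28 (adjusted p = 0.00577) in deficient mice and -0.18 (adjusted p = 0.0438) in wildtype mice. Without deficient air M2 as well, the wildtype difference was again -0.18 (adjusted p = 0.0547). Its 2 dimmer probe sets were not called, at -0.11 each in deficient mice, so the fall in deficient mice rests on the brightest one.

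Among the 6 genes of fatty acid synthesis proper, 3 fell in deficient mice and 0 were called in wildtype mice, and each of the 6 was higher on the 2 air arrays of high Ucp1 than on the other 6 air arrays. Thrsp, a nuclear protein that promotes lipogenesis, had 6.34, 6.03, 5.17 and 6.76 in deficient ozone lungs, against 7.06, 7.94, 7.69 and 11.14 in deficient air lungs. In wildtype lungs it had 7.04, 6.62, 7.79 and 8.41 in ozone, against 7.10, 7.38, 11.14 and 9.06 in air. The 2 values of 11.14 belong to the arrays of high Ucp1. Thrsp fell, at -2.38 ± 0.71 (adjusted p = 0.0195) in deficient mice and differed by -1.21 ± 0.71 (adjusted p = 0.201) in wildtype mice. The fall was -1.61 (adjusted p = 0.0168) without the 2 arrays of high Ucp1, and with deficient air M2 also left out the difference was -1.30 and no longer called (adjusted p = 0.0604). It was -1.67 (adjusted p = 0.0697) without the array labelled deficient air F2 alone and -1.79 (adjusted p = 0.0719) without deficient ozone F1. Acss2, which makes acetyl-CoA from acetate, was at 8.29, 8.64, 8.21 and 8.22 in deficient ozone lungs, against 8.69, 8.71, 8.59 and 9.52 in deficient air lungs. Its wildtype values were 8.30, 8.48, 8.46 and 8.58 in ozone, against 8.55, 8.59, 9.29 and 9.03 in air. The highest air array of each genotype was again the one of high Ucp1. The difference was -0.54 ± 0.18 (adjusted p = 0.0348) in deficient mice and -0.41 ± 0.18 (adjusted p = 0.0915) in wildtype mice. The deficient call was lost without deficient ozone M1, F1 or F2 or deficient air M1 or F2, and the difference was -0.34 (adjusted p = 0.119) without the array labelled deficient air F2 and -0.33 (adjusted p = 0.075) without the 2 arrays of high Ucp1. Acaca, acetyl-CoA carboxylase, which makes malonyl-CoA, was read by a dim probe set at 4.88, 4.72, 4.73 and 4.68 in deficient ozone lungs, against 4.97, 4.74, 5.16 and 5.25 in deficient air lungs. In wildtype lungs it was at 4.85, 5.0, 4.93 and 4.90 in ozone, against 5.08, 4.95, 5.33 and 5.12 in air. The groups overlapped in both genotypes. The difference was -0.28 ± 0.09 (adjusted p = 0.036) in deficient mice and -0.20 ± 0.09 (adjusted p = 0.105) in wildtype mice. The deficient call was lost without deficient ozone M2, F1 or F2 or deficient air M1, F1 or F2, with adjusted p up to 0.119, and without the 2 arrays of high Ucp1 (-0.21, adjusted p = 0.103).

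Fasn, fatty acid synthase, measured 11.39, 11.33, 11.14 and 11.31 in deficient ozone lungs, against 10.56, 10.80, 11.23 and 11.87 in deficient air lungs. It measured 11.60, 11.22, 11.48 and 11.54 in wildtype ozone lungs, against 10.81, 10.93, 12.17 and 11.28 in wildtype air lungs. The 2 highest of these 16 values, 11.87 and 12.17, came from the arrays of high Ucp1. With all arrays the difference was 0.18 ± 0.23 (adjusted p = 0.596) in deficient mice and 0.16 ± 0.23 (adjusted p = 0.609) in wildtype mice. Leaving out the 2 arrays, it was called in both, at 0.40 ± 0.14 (adjusted p = 0.044) in deficient mice and 0.42 ± 0.14 (adjusted p = 0.0304) in wildtype mice. With deficient air M2 also left out, the adjusted p of Fasn was 0.0833 in deficient mice and 0.0338 in wildtype mice. Me1, malic enzyme, a source of NADPH for lipid synthesis, differed by 0.05 ± 0.20 (adjusted p = 0.884) in deficient mice and 0.21 ± 0.20 (adjusted p = 0.451) in wildtype mice. Without the 2 arrays the Me1 differences were 0.27 (adjusted p = 0.129) in deficient mice and 0.41 (adjusted p = 0.0221) in wildtype mice. With deficient air M2 also left out, Me1 was called in both, at 0.39 (adjusted p = 0.036) in deficient mice and 0.40 (adjusted p = 0.0131) in wildtype mice. Acly, which makes cytosolic acetyl-CoA from citrate, differed by 0.03 in deficient mice and 0.10 in wildtype mice. With these 2 arrays left out the Acly differences were 0.22 (adjusted p = 0.0643) in deficient mice and 0.16 (adjusted p = 0.148) in wildtype mice. Of the 33 genes, 10 had both of these arrays above the other 6 air arrays and 0 had both below. The 10 were Nsdhl, Sc5d, Acly, Acss2, Acaca, Fasn, Me1, Thrsp, Scd1 and Elovl6. The shares of all genes above or below in this way were not computed, so these counts cannot be judged against them. The 7 fat cell markers measured summed to 8240 and 9093 on the 2 arrays, against 1016 to 1853 on the other 6 air arrays and 957 to 2037 on the 8 ozone arrays. Their part in the fatty acid results was not tested beyond leaving the arrays out. Without the 2 arrays 11 of the 33 genes were called higher and 2 lower in deficient mice, and 14 higher and 2 lower in wildtype mice. Of all genes, 13.9% were then called higher and 13.6% lower in deficient mice, and 18.5% and 16.1% in wildtype mice. Without deficient air M2 as well, 9 of the 33 were called higher and 2 lower in deficient mice, and 13 higher and 1 lower in wildtype mice. The shares of all genes were 12.1% higher and 12.9% lower in deficient mice, and 18.7% and 16.2% in wildtype mice.

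**Figure D3:**
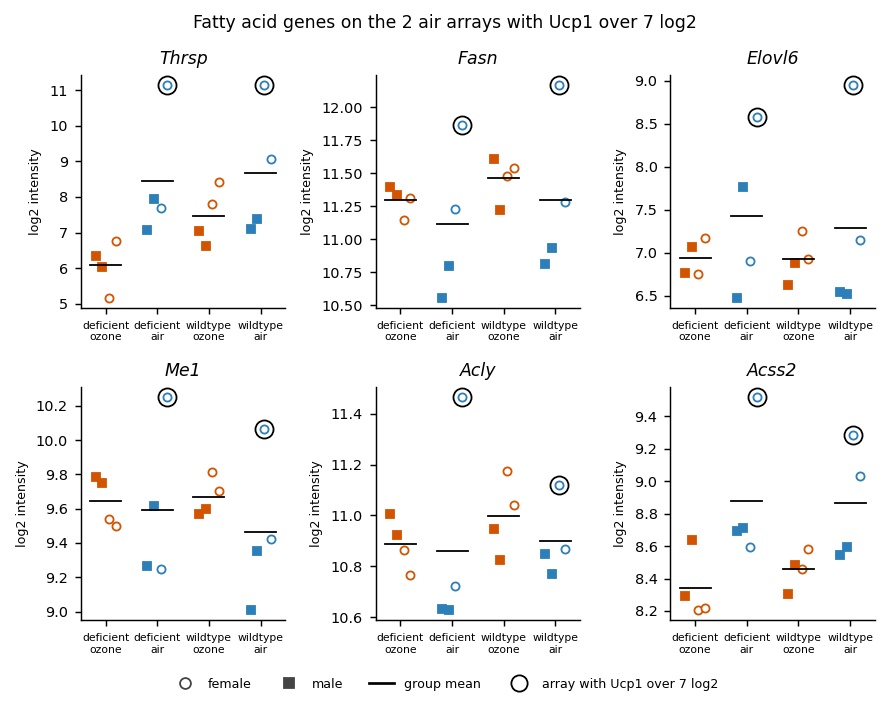
Log2 intensity of 6 fatty acid genes, with 1 point per mouse (circles female, squares male, orange ozone, blue air), the group mean as a line and a ring around the 2 air arrays with Ucp1 over 7. The ringed arrays are the highest of all 16 for Thrsp (11.14 on both), Fasn (11.87 in the deficient mouse and 12.17 in the wildtype mouse), Elovl6, Me1 and Acss2, and for Acly 1 of them is the highest.

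The elongases were not called in ozone. Elovl6, which lengthens palmitate to stearate, ranged from 6.75 to 7.17 in deficient ozone lungs, against 6.48 to 8.58 in deficient air lungs, and from 6.63 to 7.25 in wildtype ozone lungs, against 6.51 to 8.95 in wildtype air lungs. The 2 highest values were those of the arrays of high Ucp1. Its differences were -0.49 ± 0.42 in deficient mice and -0.37 ± 0.42 in wildtype mice, and without the 2 arrays -0.14 in deficient mice and 0.15 in wildtype mice. Deficient air M2 had the next highest value, 7.76, and without it as well the deficient difference was 0.25 (adjusted p = 0.294), so its direction turned with the arrays kept. Elovl5, an elongase of polyunsaturated fatty acids, differed by -0.06 ± 0.06 in both genotypes. Elovl1, which lengthens saturated fatty acids to very long chains, differed by 0.29 ± 0.17 (adjusted p = 0.212) in deficient mice and by 0.40 ± 0.17 (adjusted p = 0.0756) in wildtype mice. Tested on their own, the dimmest of the other two probe sets of Elovl1 was called in deficient mice, by 0.56, and both were called in wildtype mice, by 0.49 and 0.72.

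Adiponectin deficiency itself moved none of the 33 genes past the threshold of limma. In ozone 0 genes were called (0.0161% of all genes higher and 0% lower), and 4 had an unadjusted p under 0.05 (12.1% of the 33, against 11.2% of all genes). In air 0 were called (0.00807% of all genes higher and 0% lower), and 2 had an unadjusted p under 0.05 (6.06%, against 5.91% of all genes). These shares are close to those of all genes. Scd2 in ozone was the nearest, at 12.28 ± 0.09 in deficient mice and 12.52 ± 0.02 in wildtype mice (SD, n = 4 each). The groups did not overlap, and limma gave -0.24 ± 0.06 (deficient minus wildtype, adjusted p = 0.242). Stard4 in ozone was at 8.66, 9.06, 8.89 and 8.63 in deficient lungs, against 8.52, 8.18, 8.50 and 8.20 in wildtype lungs. Its groups did not overlap either, and the difference was 0.46 ± 0.14 (adjusted p = 0.28). In air Stard4 had 8.62, 8.61, 9.29 and 9.23 in deficient lungs, against 8.45, 8.39, 8.81 and 8.63 in wildtype lungs, a difference of 0.37 ± 0.14 (adjusted p = 0.818). Within each sex the deficient air arrays lay above the wildtype ones. The other genes with an unadjusted p under 0.05 were Dhcr7 in air (0.26) and, in ozone, Sc5d (0.16) and Pmvk (-0.23). Half-widths of the 95% intervals had a median of 0.24 over the 33 genes, before any adjustment, and larger differences, such as that of Stard4, were also not called. The difference between the ozone effects of the genotypes was called for 0 of the 33 genes by limma (0% of all genes in either direction), and for 1, Dhcr7, at an unadjusted p under 0.05 (3.03%, against 4.88% of all genes). These intervals had a median half-width of 0.33.

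The sexes differed for some sterol genes. Over all groups, 3 of the 33 genes were called higher in females (3.11% of all genes) and 1 lower (2.55% of all genes). Hmgcs1 averaged 11.05 in females and 10.63 in males, a difference of 0.42 ± 0.07 (female minus male, adjusted p = 0.00412). Dhcr7 averaged 7.91 in females and 7.54 in males (0.37 ± 0.08, adjusted p = 0.0143). These 2 calls held when any 1 array was left out, and 2 of the other 3 probe sets of Hmgcs1 were also called, at 0.28 and 0.32. Fdft1 averaged 9.10 in females and 8.82 in males (0.28 ± 0.07, adjusted p = 0.0338), and the call was lost without deficient ozone M1 or F2, deficient air M1 or F1, wildtype ozone F2 or any wildtype air array (adjusted p up to 0.0676). The other 3 probe sets of Fdft1 were not called, with differences from -0.03 to 0.09. Pmvk averaged 8.01 in females and 8.29 in males (-0.29 ± 0.07, adjusted p = 0.0381), and the call was lost without deficient ozone M2, F1 or F2, deficient air F1, wildtype ozone M2 or F2 or any wildtype air array (adjusted p up to 0.0786).

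Exposures were then taken apart by sex, with 2 mice per genotype, sex and exposure, a comparison added after the values were seen. In air 5 of the 33 genes were called higher in females (0.799% of all genes) and 0 lower (0.597% of all genes). In ozone 0 were called in either direction by limma (0.799% of all genes higher, 0.807% lower). An unadjusted p under 0.05 was found for 4 (12.1% of the 33), and the share of all genes at this p was not computed. Elovl1 measured 12.51 and 12.17 in deficient air females and 12.03 and 12.31 in wildtype air females, against 11.48 and 11.39 in deficient air males and 11.65 and 11.34 in wildtype air males. Its ozone values lay between 12.09 and 12.29 in all 8 mice. Females and males were thus apart in air and close in ozone. In air the difference was 0.79 ± 0.10 (female minus male, adjusted p = 0.00298), and 0.94 (adjusted p = 0.0043) without the 2 arrays of high Ucp1, both of which are female. Srebf1 averaged 10.20 in air females and 9.78 in air males (0.41 ± 0.06, adjusted p = 0.00791), with 0.42 (adjusted p = 0.0377) without the 2 arrays and 0.40 (adjusted p = 0.0699) without deficient air M2 as well. In ozone Srebf1 averaged 9.64 in females and 9.66 in males.

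Sqle (0.48, adjusted p = 0.0177), Fasn (0.86, adjusted p = 0.0419) and Hmgcs1 (0.46, adjusted p = 0.0498) were also called higher in air females. Without the 2 arrays of high Ucp1 the differences were 0.52 for Sqle (adjusted p = 0.0581), 0.48 for Fasn (adjusted p = 0.0896) and 0.54 for Hmgcs1 (adjusted p = 0.0896). The Sqle call was lost without deficient air F1 or wildtype air M1 (adjusted p up to 0.0811). The Fasn call was lost without any 1 of 12 arrays (adjusted p up to 0.119), all but deficient air F1, wildtype ozone M1 and M2 and wildtype air F2. The Hmgcs1 call was lost without any 1 of 14 arrays (adjusted p up to 0.154), all but deficient ozone M1 and M2. The ozone effect in females minus that in males was called for 0 of the 33 genes by limma (0.00807% of all genes higher, 0% lower). At an unadjusted p under 0.05 there were 10, all with the lower effect in females. The share of all genes at this p was not computed, so the count cannot be judged against it. Among the 10, Nsdhl, Acss2, Acaca, Fasn and Scd1 were higher on both arrays of high Ucp1, which are air females, than on the other 6 air arrays. The smallest p-values were those of Elovl1, with an ozone effect of -0.04 in females and 0.73 in males (difference -0.77 ± 0.14, adjusted p = 0.116), and Srebf1, with -0.55 in females and -0.12 in males (difference -0.43 ± 0.08, adjusted p = 0.149).

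**Figure D4:**
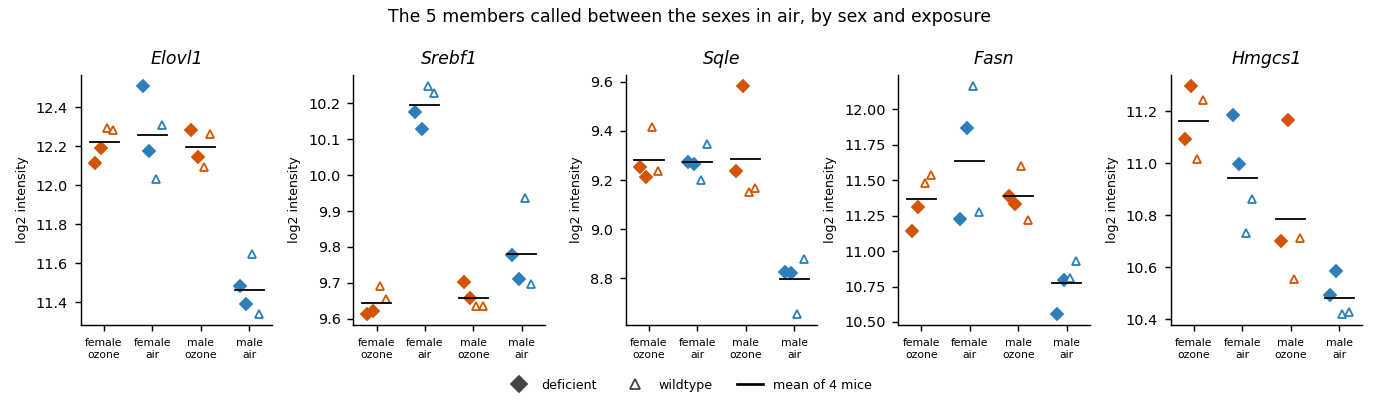
Log2 intensity of the 5 genes called between the sexes in air, by sex and exposure, with 1 point per mouse (filled diamonds deficient, open triangles wildtype, orange ozone, blue air) and the mean of 4 mice as a line. Elovl1 in air males lies between 11.34 and 11.65, below all other mice, and Srebf1 in air females lies above all other mice.

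Other genes of the same routes were read from lists, to be read against the shares of all genes called in ozone, 15.8% higher and 14.6% lower in deficient mice and 19.6% higher and 17.1% lower in wildtype mice. Of 11 further genes listed for sterol synthesis and uptake, only 4 were measured, namely Ggps1, Scap, Insig2 and Mbtps1. Of these, 0 rose and 2 fell in each genotype. Ggps1, which makes geranylgeranyl diphosphate from the product of Fdps, fell, at -0.52 in deficient mice and -0.70 in wildtype mice. Insig2, a relative of Insig1, fell, at -0.45 in deficient mice and -0.63 in wildtype mice. Of 13 genes of sterol export, storage and the LXR sterol receptors, 3 rose and 6 fell in deficient mice, and 2 rose and 6 fell in wildtype mice. Abca1, the exporter that loads cholesterol onto apolipoproteins, fell, at -1.0 ± 0.09 in deficient mice (adjusted p = 1.96e-06) and -1.18 ± 0.09 in wildtype mice (adjusted p = 5.12e-07). Mylip, the ligase that degrades the LDL receptor, fell, at -0.57 in deficient mice and -0.93 in wildtype mice. Ch25h, which makes 25-hydroxycholesterol, rose by 1.12 in deficient mice and 0.63 in wildtype mice. The wildtype call was lost without the 2 arrays of high Ucp1 (0.61, adjusted p = 0.0851) and without any 1 of 8 arrays, namely deficient ozone M1 or F2, deficient air F1, wildtype ozone M2 (0.41, adjusted p = 0.16) or F1, or wildtype air M1, M2 or F1. Cyp27a1, a sterol hydroxylase, fell, at -0.69 in deficient mice and -0.52 in wildtype mice. Of 18 further genes of fatty acid and glycerolipid synthesis, 2 rose and 3 fell in deficient mice, and 4 rose and 3 fell in wildtype mice, close to those shares. Lpin1, a phosphatidate phosphatase, fell, at -0.65 in deficient mice and -0.45 in wildtype mice. Gpam, the first acyltransferase of glycerolipid synthesis, fell, at -0.32 in deficient mice and -0.33 in wildtype mice. Tecr rose by 0.20 in deficient mice and 0.29 in wildtype mice, and Acsl5 by 0.21 in each. The deficient call of Tecr was lost without any 1 of 9 arrays (adjusted p up to 0.145). That of Acsl5 was lost without the 2 arrays of high Ucp1 and deficient air M2 (0.17, adjusted p = 0.138). Of 9 genes of energy sensing and adiponectin signalling, 1 rose and 2 fell in deficient mice, and 0 rose and 2 fell in wildtype mice, and Ppara, a nuclear receptor for fatty acids, fell, at -0.52 in deficient mice and -0.30 in wildtype mice. The wildtype call of Ppara was lost without wildtype ozone M2 or wildtype air F2 (adjusted p up to 0.0653) and without the 2 arrays of high Ucp1 (-0.28, adjusted p = 0.0505). Pparg, a nuclear receptor of fat cells and macrophages, differed by -0.61 in deficient mice (adjusted p = 0.0387), with 8.27 on the array labelled deficient air F2, against 7.28 to 7.51 on the other 3 deficient air arrays. Without that array the difference was -0.35 (adjusted p = 0.116), and the call was also lost without deficient ozone M1, F1 or F2 or deficient air M1 (adjusted p up to 0.135).

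Markers of cell types were read beside these genes. Of all genes, 15.8% were called higher in ozone in deficient mice and 19.6% in wildtype mice. The 4 markers of cycling cells all rose, and their summed intensity was 1854 to 2690 in deficient ozone lungs, against 313 to 326 in deficient air lungs, and 1410 to 1832 in wildtype ozone lungs, against 246 to 331 in wildtype air lungs. Of 7 markers of alveolar type 2 cells, 2 rose in each genotype, and the sum was 72392 to 82987 in deficient ozone lungs, against 67090 to 73258 in deficient air lungs, and 79921 to 82636 in wildtype ozone lungs, against 71199 to 80097 in wildtype air lungs. Both wildtype calls, Sftpd and Abca3, were lost without the 2 arrays of high Ucp1 (adjusted p = 0.0823 and 0.0965). Of 7 macrophage markers 0 were called in deficient mice and 1 rose in wildtype mice, with sums of 6736 to 8540 in deficient ozone lungs, against 5973 to 7336 in deficient air lungs, and 4252 to 8871 in wildtype ozone lungs, against 5691 to 9008 in wildtype air lungs. The part of these cells in the rise of the sterol genes was not tested.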

How the data were processed

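The authors deposited linear intensities, with 1 value for every probe set of each mouse, from RMA (background correction, normalization between arrays, summary of probes) per the submitters' processing notes. Its software version was not found in the labels. Log2 values had been foreseen, so the log2 of the deposited intensities was taken. The 22690 probe sets comprised 20380 annotated to 1 gene, 691 to several, 1555 to none and 64 controls. The brightest was kept for each of 12393 genes. Without detection calls, signal over background is not known for dim probe sets, and normalization hides a change of all RNA together. One limma model (version 3.58.1, lmFit and eBayes, under R 4.3.3) held the arrays of all groups. Adipoq was tested by exact permutation. The scripts were tested on simulated data. Nothing in the labels names the housing or litter of the mice, so p-values measure the spread between these mice. Every listed gene is described. Those called in an ozone comparison are given on each array, the others by ranges or differences, and up to 4 called genes of each further list are named. The genes, the lists and the motifs were chosen with earlier results of these data known. Sequences came from RefSeq, GRCm38.p6. Figures and summaries used matplotlib 3.10.9, pandas 2.3.3 and Python 3.11.15. The alternatives were other normalizations, filters, probe set rules, priors and model terms, and leaving arrays out.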

Additional observations from a re-analysis of the deposited data

Results flagged for a closer look

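Among 132 groups of 4 mice (33 genes in 4 groups), 10 held an array far from the other 3 by Dixon's test (7.58%), where chance gives about 1 in 20. In deficient ozone lungs, Sqle was highest in M2 at 9.58 (others 9.21 to 9.26), and Msmo1 was highest in M2 at 9.48 (others 8.90 to 8.94). In deficient air lungs, Cyp51 was lowest in M1 at 7.31 (others 7.82 to 7.87), and Hsd17b7 was lowest in M1 at 6.42 (others 6.63 to 6.67). The array labelled deficient air F2, of high Ucp1, was highest for Acly at 11.46 (others 10.63 to 10.72) and for Acss2 at 9.52 (others 8.59 to 8.71). In wildtype ozone lungs, M1 was lowest for Mvk at 7.78 (others 7.83 to 7.84) and for Elovl1 at 12.09 (others 12.26 to 12.29). In wildtype air lungs, Hsd17b7 was lowest in M2 at 6.43 (others 6.71 to 6.77), and Srebf2 was highest in F1, the other array of high Ucp1, at 9.30 (others 8.96 to 9.0).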

How the results depend on the processing

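No called difference changed sign under any setting run. With 1 array left out, the 15 calls for ozone in deficient mice became 9 to 16, the lowest without deficient ozone F2, and the 13 in wildtype mice became 11 to 14. Without the sex term deficient mice had 9. With a replicate block the counts were 14 in deficient mice, where Hsd17b7 was lost (adjusted p = 0.0674), and 13 in wildtype mice. Of 24 pairs of arrays that share a number, 2 had residuals correlated above 0.1. Centring the residuals within group and within sex lowers such correlations, so this count cannot settle whether the numbers pair the mice. The 4 calls for female against male became 7 on every probe set and 2 to 6 with 1 array left out. In air the 5 calls became 8 without dim genes, 9 on every probe set, 2 without the 2 arrays of high Ucp1, 1 without deficient air M2 as well, and 2 to 7 with 1 array left out. The sexes in ozone gave 0 to 1, and ozone by sex 0 to 2, with 1 array left out. Deficiency in air, in ozone and its interaction gave 0 throughout. Hmgcs1 in wildtype mice was not called after quantile normalization (adjusted p = 0.0762), Scd2 in deficient mice on the mean of its probe sets (0.212), and Ebp in wildtype mice without the 3 arrays (0.0511). The cause of these changes was not tested, except that fewer arrays enter when some are left out.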
